A study of Mus musculus with 12 samples.

Results

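The 36 genes followed here encode enzymes of fatty acid oxidation in mitochondria and peroxisomes, the carnitine shuttle that feeds them, and further genes known as targets of the nuclear receptor PPAR-alpha. They were taken by symbol from a table of log2 probe set levels, and where a gene had several probe sets, the brightest on average was used (12 arrays). Of the 36, 35 had a probe set, out of 18193 genes on the table; Acsl1 was not analysed here. All 35 passed the level filter used for testing, which asks for a log2 level of 5 or more on any 2 arrays, as did 15781 genes in all. Ehhadh passed it only through its day 5 arrays and the array labelled basal 9A1 replicate 1, so it had to differ between arrays to be tested. The same holds for Pdk4, which passed only through arrays labelled 9A1.

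Affymetrix arrays measured total RNA, labelled with biotin, of the lines 9A1 and 14B3, which are BMEL lines (bipotential mouse embryonic liver): epithelial lines able to form hepatocytes or bile duct cells in culture. Per the labels, both lines were isolated independently from liver at day 14 post coitum, from embryos of a cross of CBA/J with C57Bl/6J, and no transgene or deletion is named for either. Each line was kept in basal culture or grown as aggregates for 1 day or 5 days, giving 6 groups of 2 biological replicates and 4 arrays per culture. Each line is a separate isolate, so a difference between lines is a difference between 2 isolates. Levels are given on the log2 scale, and where 4 follow each other they stand in the order 9A1 replicate 1, 9A1 replicate 2, 14B3 replicate 1, 14B3 replicate 2.

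Long-chain fatty acids are activated to acyl-CoA, handed to carnitine by CPT1 at the outer mitochondrial membrane, carried inward by the carnitine-acylcarnitine translocase and released again by CPT2. Inside, each round of beta-oxidation runs through a dehydrogenase, a hydratase, another dehydrogenase and a thiolase, with electrons leaving through the electron transfer flavoprotein (ETF). Peroxisomes shorten very long and branched chains by a similar spiral and export the products as carnitine esters. In liver, fasting raises many of these enzymes through PPAR-alpha, and the acetyl-CoA they yield feeds ketone body formation.

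2 arrays labelled 9A1 carried the line genes of 14B3. Outside these arrays, 12 genes lay more than 2 log2 units apart between all 9A1 and all 14B3 arrays, 7 higher in 9A1 and 5 higher in 14B3. The array labelled basal 9A1 replicate 1 and the array labelled day 1 9A1 replicate 2 lay on the 14B3 side for 12 of these 12 genes, among them the X-inactivation transcript Xist and the Y-linked gene Kdm5d. The closest array to the array labelled basal 9A1 replicate 1 was day 5 14B3 replicate 1 (Pearson r of 0.961 across genes, against 0.914 with its own replicate). The array labelled basal 9A1 replicate 1 also stood above the other 3 basal arrays for 31 of 35 members, against 4920 of 15781 genes (31.2%). Hepatocyte genes (mean of 11 markers) lay between 6.98 and 9.67 on the basal arrays, 8.46 and 8.88 on day 1 and 10.1 and 11.1 on day 5. Absorptive gut genes (12 markers) had list means of 6.55 to 9.85 in basal culture, 7.74 to 8.62 on day 1 and 10.6 to 11.3 on day 5. The 4 bile duct markers went different ways on day 5: Epcam, which marks epithelia in general, rose by 4.58, Krt7 fell by 1.72, and Krt19 and Sox9 did not pass (-0.13 and -0.83). Means of the blood, endothelial and stellate lists stayed between 4.90 and 6.24 on every array, and Ptprc, Hba-a1, Tek and Lrat were under 5 throughout. The macrophage marker Cd68, between 5.85 and 8.13, fell by 1.19 on day 5, and the endothelial markers Cdh5 and Vwf stood at 7.65 and 7.25 on the array labelled basal 9A1 replicate 1, above every other array. The hepatocyte and gut genes, Epcam, Krt7 and Cd68 thus moved with the results that follow, and their part in them was not tested. In cultures of mixed cells, more cells of a type and more RNA per cell cannot be told apart. The fits use the labels as deposited, and the main counts and many values are also given without these 2 doubtful arrays; that leaves 9A1 with 1 array in basal culture and 1 on day 1, each assumed to vary like the other groups.

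**Figure D1:**
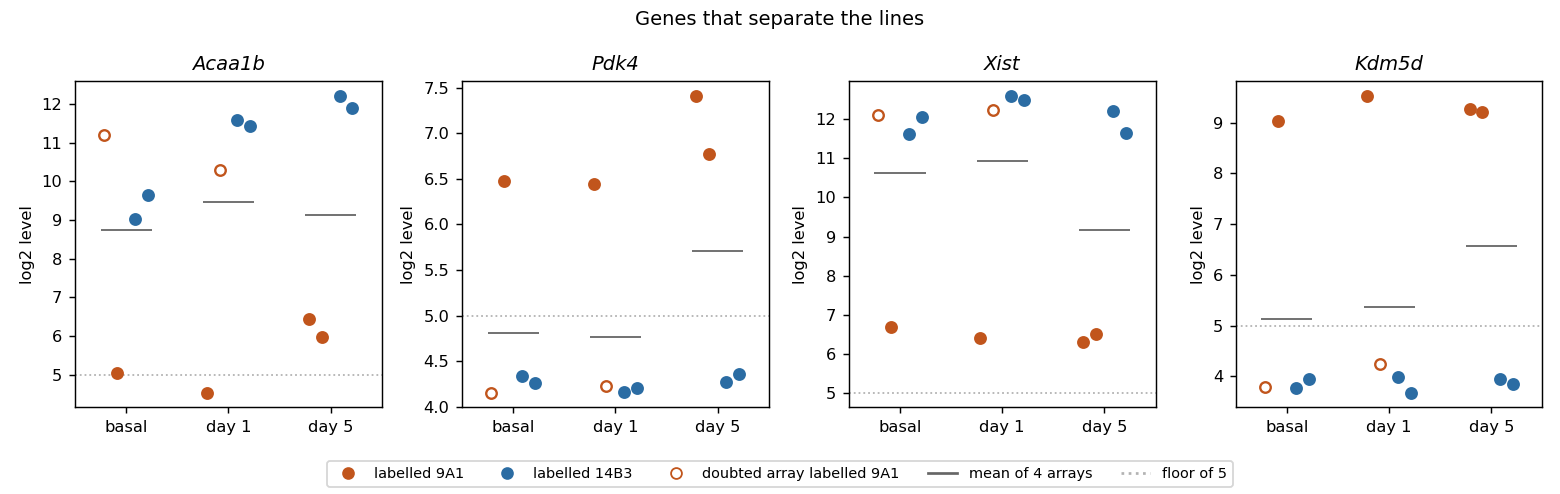
Log2 levels of Acaa1b, Pdk4, Xist and Kdm5d on each array by culture, with points for arrays and bars for the mean of the 4 arrays of a culture. The open points are the 2 doubtful arrays labelled 9A1, which lie with the 14B3 arrays for every one of these 4 genes.

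Compared with basal culture, fatty acid oxidation genes were higher in day 5 aggregates and many already on day 1. On day 5, 28 of the 35 were called higher and 0 lower (limma, adjusted p under 0.05), with a median change of 1.16 (2.24-fold), while 16.9% of all genes tested were called higher, 18.5% lower, and their median change was 0.01. On day 1, 18 were called higher and 0 lower, against 5.25% of all genes called higher and 8.8% lower, and the median change was 0.73 against 0.03. At an unadjusted p under 0.05 in limma, 31 were higher and 0 lower on day 5, and 22 and 1 on day 1. For counts at an unadjusted p or with 1 array left out, here and below, no share of all genes is given. Such counts thus have no background to be read against. From day 1 to day 5, 13 were called higher and 1 lower, the carnitine palmitoyltransferase gene Cpt1a, where 11.7% of all genes were called higher and 10% lower. All 4 day 5 arrays lay above all 4 basal arrays for 30 of the 35 genes (18.5% of all genes), and all 4 day 1 arrays did so for 11 (5.37%). All 4 lay below all 4 basal arrays for 0 genes on day 5 (20.3% of all genes) and 0 on day 1 (8.9%).

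Without the 2 doubtful arrays the counts were larger. On day 5, 32 genes were then called higher and 1 lower, the pantetheinase gene Vnn1, against 24.9% and 27.1% of all genes. The day 1 count became 29 against 18.1%, and 21 rose and 2 fell from day 1 to day 5 against 18.3% and 24.7%. The day 1 count depended on the 14B3 arrays: leaving out basal 14B3 replicate 1 gave 6, basal 14B3 replicate 2 gave 8, and each of the day 1 arrays of 14B3 gave 5. Some day 1 falls were called without basal 9A1 replicate 2 (3 genes) or day 1 9A1 replicate 1 (1 gene), and 1 on day 5 without either basal 9A1 array. From day 1 to day 5 the count of rises was 20 without either basal 9A1 array, and of falls 2 without those arrays or day 1 9A1 replicate 1, while Cpt1a was no longer called lower without day 1 14B3 replicate 2 or day 5 14B3 replicate 1. Of the 18 day 1 calls, 5 held on leaving out any single array (Cpt1a, Crot, Decr2, Eci2 and Hadhb), 8 were lost without any of 3 to 5 arrays, and 5 without any of 7 to 9: Acaa1a, Acaa2, Acads, Acadvl and Slc25a20. The smallest rise called on day 5, that of Etfa, lost its call without any one of 9 arrays.

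**Figure D2:**
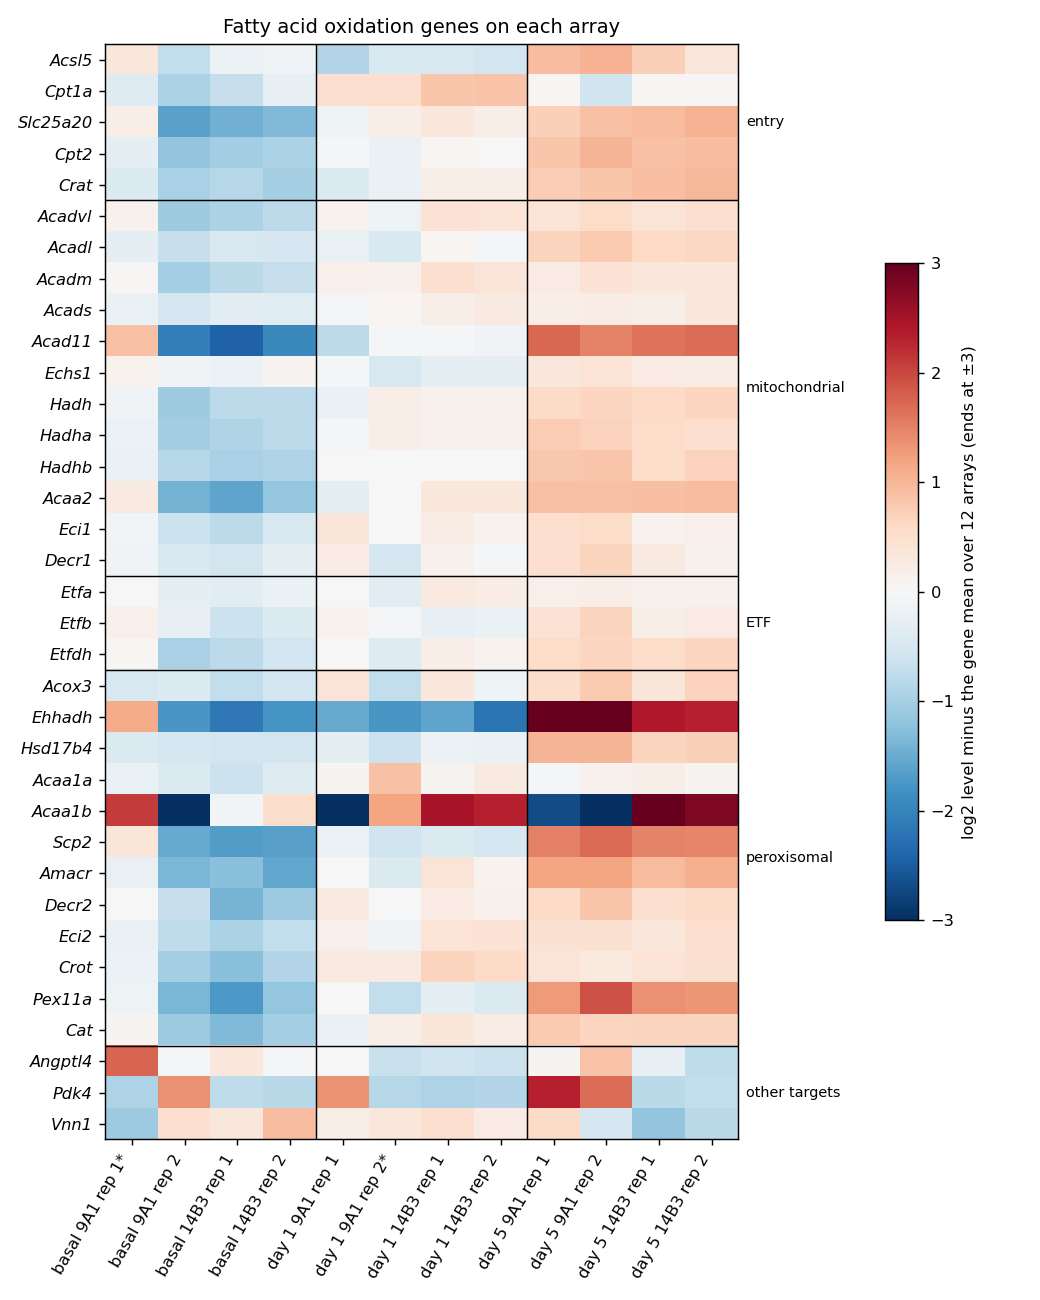
Log2 level of each of 35 genes on each of 12 arrays, minus the gene's mean over the arrays, with genes grouped by role and the 2 doubtful arrays marked by an asterisk; colours end at 3 log2 units either way. Most rows are blue on 3 of the 4 basal arrays and red on the 4 day 5 arrays, and Acaa1b and Pdk4 follow the line.

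Among the 5 genes of activation and carnitine transport, 4 were called higher on day 5 and 4 on day 1 (16.9% and 5.25% of all genes). Their medians were 1.68 and 0.82. Slc25a20, the carnitine-acylcarnitine translocase of the inner membrane, stood at 11.42, 9.63, 9.79 and 9.91 in basal culture, at 11.08, 11.43, 11.54 and 11.42 on day 1 and at 11.93, 12.11, 12.19 and 12.28 on day 5. The 4 day 5 arrays were its 4 highest, and the array labelled basal 9A1 replicate 1 lay among the day 1 arrays. It rose by 1.94 ± 0.32 (SE) on day 5, which is 3.83-fold (adjusted p = 0.00153), and by 1.18 ± 0.32 on day 1 (adjusted p = 0.0379). Cpt2, which frees the acyl group from carnitine inside the mitochondrion, stood at 10.26, 9.36, 9.50 and 9.60 in basal culture, at 10.49, 10.35, 10.61 and 10.53 on day 1 and at 11.39, 11.56, 11.43 and 11.46 on day 5. Its cultures did not overlap and were ordered basal, day 1, day 5. The rise of Cpt2 was 1.76-fold on day 1 (adjusted p = 0.0186) and 3.43-fold on day 5 (adjusted p = 0.000170), and it rose again between them, by 0.96 ± 0.18 (adjusted p = 0.00616). A much dimmer probe set for Cpt2 gave 0.15 on day 1 (adjusted p = 0.544) and 0.66 on day 5 (adjusted p = 0.00366). Crat, the acetyltransferase that makes short-chain carnitine esters, had 1.68-fold and 3.19-fold rises on day 1 and day 5 (adjusted p = 0.0121 and 9.18e-05). Its day 5 arrays lay above all others. A dimmer probe set for Crat gave changes of 0.57 on day 1 and 0.64 on day 5 that did not pass (adjusted p = 0.200 and 0.0915).

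Cpt1a, the gatekeeping transferase of the outer membrane, had another course. Its levels were 11.29, 10.73, 10.98 and 11.42 in basal culture, 12.19, 12.19, 12.52 and 12.54 on day 1 and 11.74, 11.09, 11.72 and 11.72 on day 5. The 4 day 1 arrays were the 4 highest, and the day 5 arrays overlapped with basal culture. It rose 2.38-fold on day 1 (change 1.25 ± 0.18, adjusted p = 0.00269) and fell by 0.79 ± 0.18 from day 1 to day 5 (adjusted p = 0.0132). On day 5 it differed from basal culture by 0.46 ± 0.18, which did not pass the threshold (adjusted p = 0.0743); it passed without the doubtful arrays (0.60, adjusted p = 0.0124), and without day 5 9A1 replicate 2 (0.62, adjusted p = 0.0272). Acsl5, a long-chain acyl-CoA synthetase that loads fatty acids for use, moved late: its change was -0.42 ± 0.21 on day 1 (adjusted p = 0.258) and 0.93 ± 0.21 on day 5 (adjusted p = 0.00835). It was at 11.78, 12.21, 12.21 and 12.10 on day 1 and at 13.60, 13.71, 13.37 and 13.01 on day 5, with no overlap between them.

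**Figure D3:**
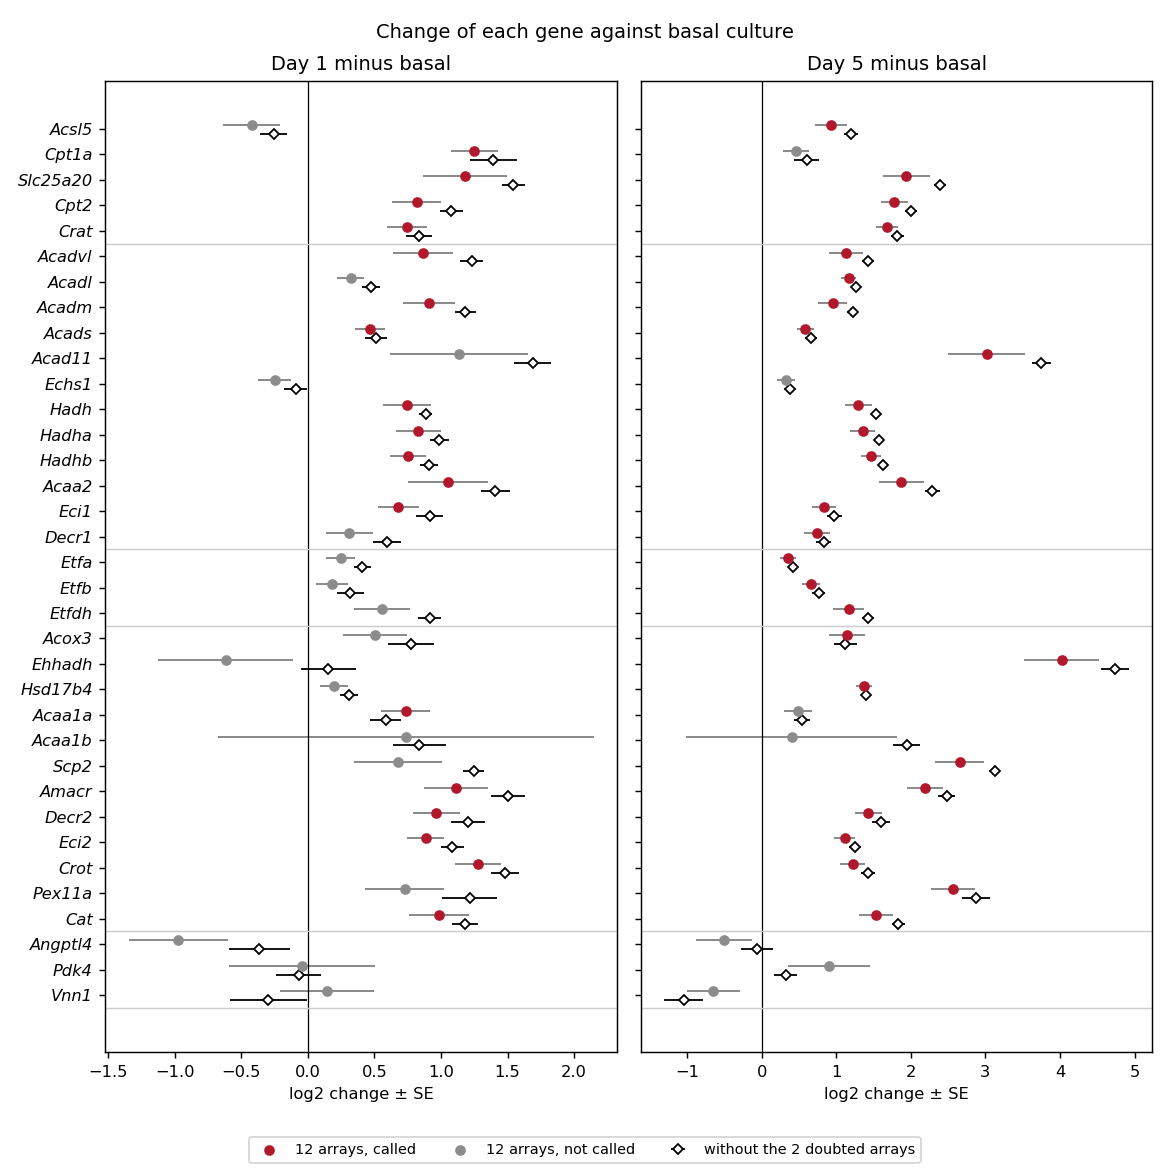
Log2 change of each of 35 genes on day 1 (left) and day 5 (right) against basal culture, with bars for the SE from limma. Filled points use all 12 arrays and are red where the adjusted p is under 0.05, and open diamonds leave out the 2 doubtful arrays; on day 5 only Angptl4 and Vnn1 lie below 0 in both.

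Of the 12 genes listed here as mitochondrial beta-oxidation genes, 11 were called higher on day 5 and 8 on day 1 (16.9% and 5.25% of all genes). Their medians were 1.15 and 0.75. Acad11 is counted among these 12, and where its product acts in the cell was not examined. The acyl-CoA dehydrogenases take the first step, each for a range of chain lengths. Acadm, for medium chains, stood at 11.93, 10.87, 11.07 and 11.21 in basal culture, at 12.05, 12.02, 12.37 and 12.27 on day 1 and at 12.14, 12.32, 12.20 and 12.24 on day 5. Day 1 and day 5 arrays overlapped, and both lay above basal culture. Its rise was 1.88-fold on day 1 (adjusted p = 0.0161) and 1.94-fold on day 5 (adjusted p = 0.00463), and its change between them was 0.04 ± 0.19 (adjusted p = 0.913). Acadvl, for very long chains, and Acads, for short chains, likewise changed by 0.27 and 0.12 from day 1 to day 5, neither past the threshold, after day 1 rises of 1.82-fold and 1.38-fold. Acadl, for long chains, did pass it from day 1 to day 5 (0.84 ± 0.10, adjusted p = 0.000980), while its day 1 change of 0.32 ± 0.10 did not (adjusted p = 0.0774). That day 1 change was 0.41 with quantile normalisation (adjusted p = 0.0203) and 0.47 without the doubtful arrays. Acad11, a further acyl-CoA dehydrogenase that acts on long chains, was at 12.14, 9.21, 8.86 and 9.35 in basal culture, 10.50, 11.23, 11.21 and 11.17 on day 1 and 13.01, 12.76, 12.91 and 12.96 on day 5. The day 5 arrays stood above all others, and the array labelled basal 9A1 replicate 1 lay above every day 1 array. Its day 5 rise was 8.10-fold (3.02 ± 0.52, adjusted p = 0.00191), 13.4-fold without the doubtful arrays; its day 1 change of 1.14 ± 0.52 did not pass (adjusted p = 0.200) but did so without them (1.69, adjusted p = 5.15e-05).

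Hadha and Hadhb, the 2 subunits of the trifunctional protein that carries out the later steps on long chains, were both called on both days. Hadha stood at 11.26, 10.40, 10.53 and 10.65 in basal culture, at 11.39, 11.63, 11.56 and 11.57 on day 1 and at 12.19, 12.14, 11.98 and 11.94 on day 5. Hadhb stood at 11.50, 10.85, 10.73 and 10.77 in basal culture, at 11.71, 11.71, 11.72 and 11.71 on day 1 and at 12.51, 12.54, 12.24 and 12.39 on day 5. For both, the day 5 arrays lay above all others and the day 1 arrays above basal culture. Hadha rose 1.78-fold on day 1 (adjusted p = 0.0134) and 2.56-fold on day 5 (adjusted p = 0.000436). Hadhb rose 1.68-fold (adjusted p = 0.00743) and 2.75-fold (adjusted p = 0.000102). Another probe set for Hadhb gave 0.37 on day 1, which did not pass (adjusted p = 0.246), and 1.21 on day 5 (adjusted p = 0.00112). The genes lie head to head on chromosome 5 in the RefSeq annotation of GRCm38.p6, Hadhb on the plus and Hadha on the minus strand, with start sites 273 bases apart. The 228 bases that lie within 250 bases upstream of both starts, at chr5:30155003-30155230 on the plus strand and with a GC content of 57.0%, are shown because both subunits share them.
Hadhb and Hadha: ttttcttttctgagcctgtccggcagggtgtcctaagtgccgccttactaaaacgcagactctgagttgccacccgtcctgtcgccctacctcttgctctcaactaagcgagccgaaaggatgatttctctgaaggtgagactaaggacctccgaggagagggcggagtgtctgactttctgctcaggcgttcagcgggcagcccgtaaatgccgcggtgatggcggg

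Acaa2, the thiolase that ends a round for medium chains, rose 2.08-fold on day 1 (adjusted p = 0.0480) and 3.65-fold on day 5 (adjusted p = 0.00143), though the day 1 call was also lost on its other probe set (0.84, adjusted p = 0.0980) and with no filter (adjusted p = 0.0522). Its levels were 11.96, 10.28, 10.11 and 10.53 in basal culture and 12.58, 12.57, 12.60 and 12.62 on day 5. Hadh, the dehydrogenase of the third step for shorter chains, rose 2.45-fold on day 5 (adjusted p = 0.000708). Eci1 and Decr1, which move or reduce the double bonds of unsaturated fatty acids, rose 1.78-fold and 1.67-fold on day 5 (adjusted p = 0.00310 and 0.0103); on day 1 Eci1 passed and Decr1 did not. The exception was Echs1, the short-chain enoyl-CoA hydratase. It stood at 11.36, 11.15, 11.10 and 11.34 in basal culture, at 11.20, 10.77, 10.98 and 10.98 on day 1 and at 11.59, 11.67, 11.51 and 11.48 on day 5. On day 1, 3 of its 4 levels lay under every basal level, and on day 5 all 4 lay above. Its day 5 change of 0.33 ± 0.12 did not pass (adjusted p = 0.0665; 0.38 without the doubtful arrays, adjusted p = 0.00294), but its rise from day 1 to day 5 did, at 0.58 ± 0.12 (adjusted p = 0.0102).

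Etfa and Etfb encode the electron transfer flavoprotein, and Etfdh encodes the dehydrogenase that passes the electrons to ubiquinone. Of these 3 genes, 3 were called higher on day 5 and 0 on day 1 (16.9% and 5.25% of all genes). Without the doubtful arrays, day 1 changes were 0.41 for Etfa, 0.32 for Etfb and 0.91 for Etfdh. Etfdh stood at 10.88, 9.83, 10.02 and 10.23 in basal culture, at 10.81, 10.42, 11.01 and 10.93 on day 1 and at 11.37, 11.45, 11.36 and 11.45 on day 5. The day 5 arrays were above all others. It rose 2.24-fold (1.16 ± 0.21, adjusted p = 0.00249), while Etfb rose 1.58-fold (adjusted p = 0.00277) and Etfa 1.27-fold (adjusted p = 0.0333).

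Among the 12 peroxisomal genes, 10 were called higher on day 5 and 6 on day 1 (16.9% and 5.25% of all genes). Their medians were 1.40 and 0.74. Ehhadh, the bifunctional hydratase and dehydrogenase of the peroxisomal spiral and a classical PPAR-alpha target, was seen above the floor of 5 on the day 5 arrays and 1 basal array alone. It stood at 7.30, 4.44, 4.05 and 4.42 in basal culture, at 4.68, 4.45, 4.61 and 3.99 on day 1 and at 9.79, 9.40, 8.59 and 8.52 on day 5. Day 1 arrays and 3 of 4 basal arrays were under the floor, the array labelled basal 9A1 replicate 1 stood alone at 7.30, and all day 5 arrays were higher still. It is among the genes counted as called, but it entered the test through the arrays on which it is high, and its low arrays lie at background, so no fold or p is given for it. Its fitted day 1 change, -0.62, became 0.15 without the doubtful arrays and has no direction. Hsd17b4, the second bifunctional enzyme of peroxisomes, handles branched chains and bile acid precursors. Most of its change came after day 1, with 0.20 ± 0.11 on day 1 (adjusted p = 0.293) and 1.38 ± 0.11 on day 5 (adjusted p = 4.71e-05). The day 1 call of Hsd17b4 depended on the processing. Its day 1 change was 0.33 with quantile normalisation (adjusted p = 0.0179) and 0.31 without the doubtful arrays. Its levels were 10.55, 10.46, 10.40 and 10.43 in basal culture, 10.70, 10.34, 10.80 and 10.79 on day 1 and 12.00, 12.01, 11.64 and 11.69 on day 5. Only the day 5 arrays stood apart.

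Scp2, whose products are a peroxisomal thiolase and a sterol carrier, stood at 11.74, 9.87, 9.71 and 9.74 in basal culture, at 11.19, 10.78, 10.93 and 10.85 on day 1 and at 12.89, 13.08, 12.87 and 12.84 on day 5. It rose 6.31-fold on day 5 (2.66 ± 0.33, adjusted p = 0.000408), and rose from day 1 to day 5 (1.98 ± 0.33, adjusted p = 0.00349). The day 1 change of 0.67 ± 0.33 did not pass (adjusted p = 0.236), and it was 1.245 without the doubtful arrays. The day 5 arrays were the 4 highest, and the array labelled basal 9A1 replicate 1 lay between them and the day 1 arrays. Pex11a, a membrane protein of peroxisome division that rises with PPAR-alpha agonists in rodents, stood at 8.61, 7.39, 7.04 and 7.59 in basal culture, at 8.74, 8.02, 8.46 and 8.32 on day 1 and at 10.02, 10.66, 10.12 and 10.08 on day 5. It rose 5.91-fold on day 5 (2.56 ± 0.30, adjusted p = 0.000289). Its day 1 change of 0.73 ± 0.30 did not pass (adjusted p = 0.149), though it passed without the doubtful arrays (1.22, adjusted p = 0.00203). Amacr, the racemase that prepares branched chains and bile acid side chains, rose 2.16-fold on day 1 (adjusted p = 0.0171) and 4.56-fold on day 5 (adjusted p = 0.000238).

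Crot, which makes octanoylcarnitine for export from the peroxisome, was among the genes with overlapping day 1 and day 5 levels. It stood at 11.07, 10.25, 10.01 and 10.39 in basal culture, at 11.53, 11.54, 11.93 and 11.84 on day 1 and at 11.64, 11.56, 11.67 and 11.72 on day 5. Day 1 and day 5 arrays overlapped, and both lay above basal culture. The rise was 2.42-fold on day 1 (adjusted p = 0.00228) and 2.33-fold on day 5 (adjusted p = 0.000774), with a change of -0.06 ± 0.17 between them (adjusted p = 0.865); a dimmer probe set gave 0.22 on day 1 (adjusted p = 0.494) and 0.37 on day 5 (adjusted p = 0.143). Cat, the catalase that removes hydrogen peroxide made by peroxisomal oxidases, rose 1.98-fold on day 1 and 2.90-fold on day 5 (adjusted p = 0.0214 and 0.000925). Decr2 and Eci2, peroxisomal enzymes for unsaturated chains, rose 1.95-fold and 1.85-fold on day 1 and 2.69-fold and 2.16-fold on day 5. Acox3, an oxidase that starts the spiral on branched chains, rose 2.21-fold on day 5 (adjusted p = 0.00549), but its dimmer probe set changed by 0.34 (adjusted p = 0.0647).

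The peroxisomal thiolases Acaa1a and Acaa1b are near-identical paralogs, so their probe sets may share signal. Acaa1a stood at 9.31, 9.10, 8.87 and 9.11 in basal culture, at 9.58, 10.39, 9.59 and 9.77 on day 1 and at 9.44, 9.64, 9.68 and 9.58 on day 5. It changed by 0.73 ± 0.18 on day 1 (adjusted p = 0.0294) and 0.49 ± 0.18 on day 5, the latter short of the threshold (adjusted p = 0.0690). Without the doubtful arrays the day 5 change was 0.54. The highest of these levels was on the doubtful day 1 array. A dimmer probe set for Acaa1a gave 0.59 on day 1 (adjusted p = 0.092) and 0.80 on day 5 (adjusted p = 0.0132). The mean of its probe sets gave 0.64 on day 5 (adjusted p = 0.0114), so the day called depends on the probe set. Acaa1b stood at 11.20, 5.04, 9.04 and 9.65 in basal culture, at 4.54, 10.30, 11.59 and 11.44 on day 1 and at 6.43, 5.97, 12.21 and 11.91 on day 5. The 6 arrays of 14B3 and the 2 doubtful arrays lay at 9.04 or above, and the other 9A1 arrays at 6.43 or below. Averaged over the lines its day 5 change was 0.40 ± 1.41 (adjusted p = 0.889), with a standard error several times that of the other genes. Without the doubtful arrays it was 1.94. Acaa1b was among the genes by which those arrays were judged, so this value is a description with no test. The counts given without those arrays include it as higher on day 1 and day 5. The difference between the lines on day 5, whose 4 arrays are not in doubt, was -5.86 ± 2.00 for 9A1 minus 14B3.

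None of the 3 remaining targets was called on day 1 or day 5. Pdk4, the pyruvate dehydrogenase kinase that spares glucose when fat is burnt, stood at 4.16, 6.47, 4.33 and 4.26 in basal culture, at 6.45, 4.23, 4.16 and 4.21 on day 1 and at 7.41, 6.78, 4.27 and 4.36 on day 5. It was under 5 on every 14B3 array and on both doubtful arrays, and between 6.45 and 7.41 on the other 9A1 arrays. It thus entered the test only through the arrays on which it is high, which limits the values that follow. Its day 5 change over both lines was 0.90 ± 0.55 (adjusted p = 0.265). Without basal 9A1 replicate 2 it was 1.48, but the doubtful array, at 4.16, was then the sole basal array of 9A1. That value thus holds the difference between the lines. Without both doubtful arrays the change was 0.32. On day 5 the lines differed by 2.78 ± 0.78, with 14B3 at background, which limits the size of that difference. Acaa1b and Pdk4 were also among the 12 genes that separated the lines, by which the arrays were judged, so their difference between lines is a description with no test. In all, 0 of the 35 genes were called higher and 0 lower in 9A1 than in 14B3 on day 5 (0.222% and 0.0253% of all genes; 1 and 1 at an unadjusted p under 0.05 in limma), and 1 each way without the doubtful arrays (2.03% and 1.57%).

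Angptl4, a secreted inhibitor of lipoprotein lipase, stood at 10.97, 9.19, 9.54 and 9.20 in basal culture, at 9.22, 8.55, 8.63 and 8.60 on day 1 and at 9.31, 10.10, 8.99 and 8.48 on day 5. The array labelled basal 9A1 replicate 1 was its highest, and the other basal arrays overlapped with day 5. Its changes were -0.98 ± 0.37 on day 1 (adjusted p = 0.123) and -0.50 ± 0.37 on day 5 (adjusted p = 0.369). Without basal 9A1 replicate 2 they were -1.42 and -0.95, with the doubtful array then the sole basal array of 9A1. Without both doubtful arrays they were -0.37 and -0.06. Vnn1, the pantetheinase that recycles the precursor of coenzyme A, stood at 10.21, 11.79, 11.62 and 12.21 in basal culture, at 11.45, 11.62, 11.78 and 11.54 on day 1 and at 11.87, 10.78, 10.11 and 10.47 on day 5. On the 14B3 arrays day 5 lay under every basal and day 1 level, while the 9A1 arrays overlapped. Its day 5 change over both lines was -0.65 ± 0.35 (adjusted p = 0.204) and -1.05 without the doubtful arrays (adjusted p = 0.00871). Within 14B3 it fell 3.08-fold (-1.62 ± 0.50, adjusted p = 0.0398), a call that was lost on leaving out any of 8 arrays, the 4 of the comparison among them.

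How far the genes moved after day 1 was read from day 5 against day 1, in which the basal arrays enter through the shared spread alone. By this test 3 of 5 entry genes, 4 of 12 mitochondrial, 1 of 3 ETF and 5 of 12 peroxisomal genes were called higher on day 5 (11.7% of all genes). Among them, with all arrays, only Cpt2, Crat, Hadhb and Amacr had also been called higher on day 1 against basal culture. That list depends on the arrays and probe sets used. Without the doubtful arrays, Slc25a20 changed by 1.54 on day 1 and by 0.85 from day 1 to day 5. Acad11 then changed by 1.69 and 2.06, and Scp2 by 1.245 and 1.88. The dimmer probe set for Crat changed by 0.06 from day 1 to day 5 (adjusted p = 0.905). All 4 day 5 arrays lay above all 4 day 1 arrays for 20 of the 35 genes (15.1% of all genes). For 1, Cpt1a, all 4 lay below (12.1%). Apart from Ehhadh, whose day 1 arrays were all at background, the largest rises in this interval were in Scp2 (1.98 ± 0.33), Acad11 (1.88 ± 0.52, adjusted p = 0.0298) and Pex11a (1.83 ± 0.30, adjusted p = 0.00307). At the other end, Crot, Acadm, Etfa, Acads and Eci1 changed by -0.06, 0.04, 0.10, 0.12 and 0.15, and none of the 5 passed. Each of these is a difference in the change of 1 gene; whether one gene's course differed from another's was not tested.

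No array labelled 14B3 was in doubt, and within this line 13 of 35 genes were called higher on day 1 (3.4% of all genes, with 0 lower against 5.17%) and 25 on day 5 (12.6%), with medians of 0.96 and 1.28. Vnn1 was the 1 gene called lower on day 5 (14.1% of all genes). The day 1 count in 14B3 fell to 0 on leaving out basal 14B3 replicate 1, or either of its day 1 arrays, and to 3 without basal 14B3 replicate 2, and rose to 23 without either basal 9A1 array, which enter only the shared spread. Without day 1 9A1 replicate 1 or 2 it was 21, and without any of the day 5 arrays 7 or 8. The day 5 count in 14B3 was 16 without basal 14B3 replicate 1. Without both doubtful arrays 28 were higher on day 1 and 1 lower, Acsl5 (15.6% and 16.1% of all genes), and 31 higher and 1 lower on day 5 (22% and 23.9%). Within 9A1, 0 of 35 were called higher on day 1 and 0 lower (0.342% and 1.53% of all genes), and 19 higher and 0 lower on day 5 (6.66% and 8.54%; at an unadjusted p under 0.05 in limma, 9 higher and 1 lower on day 1), with medians of 0.38 and 1.09. The 9A1 day 1 count was 17 higher without the array labelled basal 9A1 replicate 1, 2 without day 1 9A1 replicate 1 and 1 without either day 5 9A1 array. It was 4 lower without basal 9A1 replicate 2 and 1 lower without day 1 9A1 replicate 1. The 9A1 day 5 count was 8 or 6 without day 5 9A1 replicate 1 or 2. Without both doubtful arrays 22 were higher and 0 lower on day 1 (8.72% and 6.82%) and 30 and 0 on day 5 (19.7% and 22.2%). The medians were then 0.86 and 1.43, with 1 basal array and 1 day 1 array of 9A1 left.

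The difference between the lines in the response itself was tested as an interaction. In the fit of all arrays 0 of the 35 were called either way at day 1 (0% of all genes), and 0 at day 5 (0.038% of all genes higher and 0% lower in 9A1). At an unadjusted p under 0.05 in limma, 0 members were higher and 5 lower in 9A1 at day 1, and 1 higher and 0 lower at day 5. The interaction counts depended on basal 9A1 replicate 2, without which many genes were called with a smaller rise in 9A1. The doubtful array labelled basal 9A1 replicate 1 is then the sole basal array of its line. No share of all genes is given for that fit, so its calls are not read as a trait of these genes. Without the doubtful arrays 0 were called at day 1 (0.00641% of all genes higher and 0.0192% lower), and at day 5 the sole call was Acsl5, which rose more in 9A1 on day 5 (difference 1.07, adjusted p = 0.0393, 0.584% of all genes higher and 0.359% lower). Its changes were then 1.74 in 9A1, measured against 1 basal array, and 0.66 in 14B3. With all arrays the difference for Acsl5 was 0.53 ± 0.43 and did not pass.

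Of 18 genes for PPARs, their partners and coactivators, 8 were called higher on day 5, 0 lower, and 0 either way on day 1 (16.9% and 18.5% of all genes on day 5, 5.25% and 8.8% on day 1). Without the doubtful arrays the median change of the 18 was 0.33 on day 1 and 0.665 on day 5, against 0.13 and 0.59 with all arrays. Rxra, Ppargc1b and Ppargc1a then changed by 0.58, 1.60 and 1.16 on day 1. Ppara, which encodes PPAR-alpha, stood at 8.05, 5.28, 5.34 and 5.48 in basal culture, at 5.79, 5.46, 5.99 and 5.20 on day 1 and at 9.67, 9.87, 9.06 and 8.09 on day 5. Basal and day 1 arrays lay between 5.20 and 5.99 except for the array labelled basal 9A1 replicate 1, and the day 5 arrays were the 4 highest. It rose 8.77-fold on day 5 (3.13 ± 0.52, adjusted p = 0.00166), and its basal levels near 5 limit that fold. Its day 1 change was -0.43 ± 0.52 (adjusted p = 0.683), or 0.35 without the doubtful arrays, so the sign rests on them. The sister receptors did not pass on day 5: Ppard changed by 0.27 ± 0.14 (adjusted p = 0.180) and Pparg by 0.07 ± 0.21 (adjusted p = 0.869), though Pparg passed without the doubtful arrays (0.34, adjusted p = 0.0171). Rxra, which encodes an RXR partner of PPARs, rose 2.06-fold (1.04 ± 0.15, adjusted p = 0.000941). The other RXR genes did not pass on day 5: Rxrb changed by -0.22 ± 0.13 (adjusted p = 0.222) and Rxrg by -0.06 ± 0.16 (adjusted p = 0.846). Rxrb fell from day 1 to day 5 (-0.56 ± 0.13, adjusted p = 0.0132). Among coactivators Ppargc1b rose 4.84-fold (adjusted p = 0.00157), and Ppargc1a, at 6.13, 5.40, 6.17 and 5.87 on day 5, changed by 0.73 ± 0.32 (adjusted p = 0.114), passing without the doubtful arrays (1.06, adjusted p = 0.00786). Creb3l3, a liver factor that works with PPAR-alpha in fasting, rose 7.46-fold (adjusted p = 0.00389).

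Of 5 ketone body genes, which make, break down or carry ketone bodies, 3 were called higher on day 5 and 0 on day 1 (16.9% and 5.25% of all genes). Without the doubtful arrays their median day 1 change was 0.30, against 0.17 with all arrays. Of the 2 whose enzymes serve ketone body synthesis, Bdh1 was called and Acat1 was not. Bdh1, which makes beta-hydroxybutyrate from acetoacetate, stood at 10.63, 5.21, 4.79 and 6.40 in basal culture, at 8.13, 9.62, 9.67 and 9.67 on day 1 and at 11.71, 10.01, 11.96 and 11.89 on day 5. Its day 1 levels lay above 3 of the 4 basal levels and below every day 5 level, and the array labelled basal 9A1 replicate 1 lay within the day 5 range. The day 5 rise was 24.8-fold (4.63 ± 1.01, adjusted p = 0.00652); the basal levels near 5 limit its size. On day 1 its change of 2.51 ± 1.01 did not pass (adjusted p = 0.146), and without the doubtful arrays it was 3.50 (adjusted p = 0.000946). Oxct1, which breaks ketone bodies down and is low in mature hepatocytes, also rose on day 5, by 1.03 ± 0.18 (adjusted p = 0.00235). Acat1, the thiolase that joins acetyl-CoA units, stood at 11.91, 11.39, 11.55 and 11.86 in basal culture, at 11.80, 11.45, 12.24 and 12.10 on day 1 and at 11.83, 11.40, 11.91 and 11.87 on day 5. Its cultures overlapped, with a day 5 change of 0.07 ± 0.16 (adjusted p = 0.805). The monocarboxylate carrier gene Slc16a1 rose 1.54-fold (adjusted p = 0.00582), and Slc16a6 changed by -0.48 ± 0.28 (adjusted p = 0.244).

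The wider pathway was followed in further lists, whose day 5 counts stand against 16.9% of all genes higher and 18.5% lower. Of 22 other mitochondrial fatty acid genes 13 rose and 3 fell on day 5. With basal levels near 5, which limit its fold, Acss1, which activates acetate in mitochondria, rose 4.71-fold and the carnitine transporter gene Slc22a5 4.67-fold, while Cpt1c, the brain form of CPT1, fell 4.99-fold. Of 26 other peroxisomal genes tested 15 rose and 3 fell. Hao1, a peroxisomal hydroxyacid oxidase of liver, rose from levels of 7.95, 4.46, 4.80 and 5.02 in basal culture to 10.97, 9.43, 8.64 and 7.32 on day 5 (adjusted p = 0.00344), mostly from background, so no fold is given. Phyh, which starts phytanic acid oxidation, rose 9.18-fold and the CoA hydrolase gene Nudt7 6.23-fold. The 3 that fell, Far1 (-1.73), Agps (-1.61) and Gnpat (-0.42), all serve ether lipid synthesis; they were singled out after their values were seen. Among 13 peroxins, which build peroxisomes, 9 rose and 0 fell, led by Pex16 (3.35-fold), Pex19 (2.38-fold) and Pex13 (1.95-fold). Of 27 other PPAR-alpha targets tested 10 rose and 3 fell. The fatty acid uptake and binding genes Cd36 (22.1-fold), Fabp1 (14.5-fold) and Slc27a4 (8.97-fold) had the largest rises; Cd36 lay between 4.09 and 5.56 on 7 of the 8 basal and day 1 arrays, so background limits its fold.

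Among genes of fatty acid synthesis, 5 of 12 were higher and 3 lower on day 5. Mlxipl, the carbohydrate response factor ChREBP, rose 13.1-fold, a fold limited by basal levels near 5 on most arrays. The acetate-activating enzyme gene Acss2 rose 9.27-fold. The fatty acid synthase gene Fasn fell 1.70-fold (adjusted p = 0.0401). Of 12 genes taken as a gauge of mitochondrial content, 1 was higher and 7 were lower on day 5 (18.5% of all genes lower), with a median of -0.51. The import pore gene Tomm40 fell 1.85-fold, the chaperone gene Hspd1 1.69-fold and the mitochondrial DNA factor Tfam 1.67-fold, whereas citrate synthase (Cs) rose 1.33-fold (adjusted p = 0.0102). On day 1 the counts higher and lower were 4 and 1 for the other mitochondrial genes, 3 and 0 for the other peroxisomal genes, 2 and 0 for peroxins, 3 and 1 for targets, 0 and 0 for synthesis and 0 and 3 for mitochondrial content (5.25% and 8.8% of all genes). Without the doubtful arrays these day 1 counts were 12 and 2, 8 and 1, 7 and 0, 11 and 3, 0 and 1, and 0 and 5 (18.1% and 15.9% of all genes). On day 5 without the doubtful arrays the median changes were 0.94 for the other mitochondrial genes, 1.27 for the other peroxisomal genes and 0.79 for peroxins. With all arrays they were 0.84, 1.12 and 0.66.

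**Figure D4:**
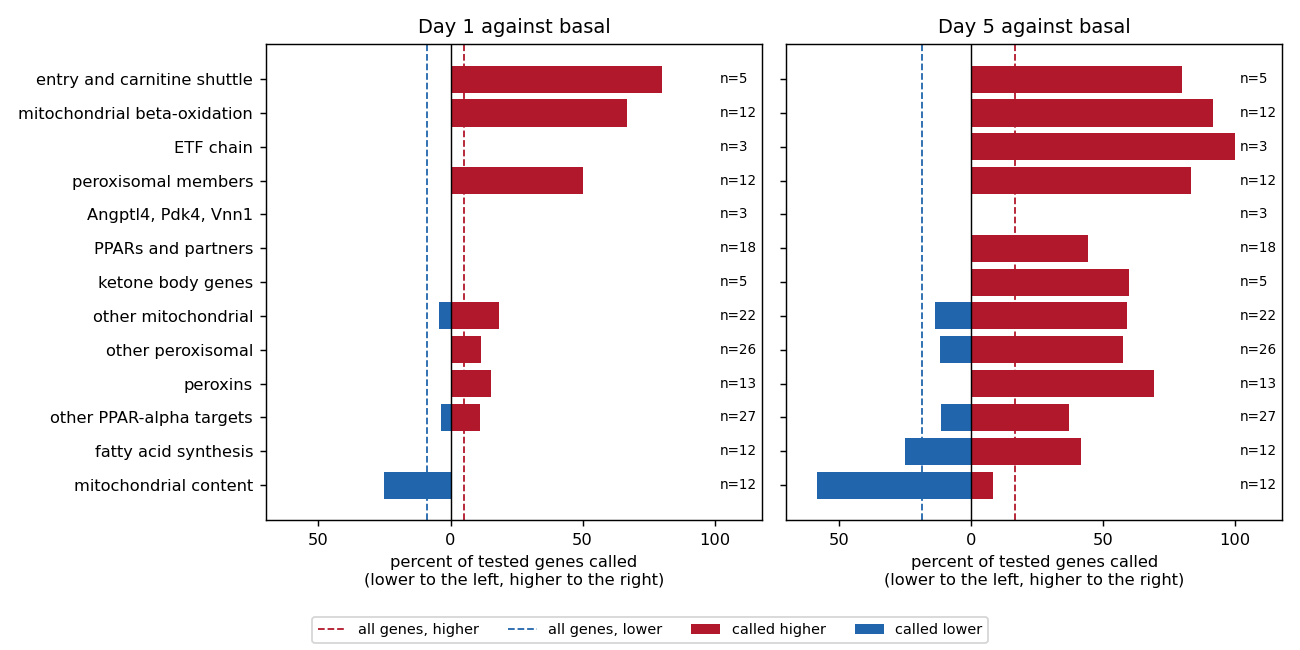
Percent of the tested genes of each list called higher (right, red) or lower (left, blue) on day 1 and day 5 against basal culture, with dashed lines for all genes tested. On day 5 the peroxins reach 9 of 13 and the peroxisomal members 10 of 12, while genes of mitochondrial content are lower in 7 of 12.

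Promoter windows from RefSeq (build GRCm38.p6, 250 bases before to 50 after a start site) were matched for 28 of the members and searched on both strands for 3 motifs. The nuclear receptor hexamer AGGTCA was present in 6 of 28 windows (21.4%), against 16.26% of 32851 windows of all genes. A direct repeat of AGGNCA with a single N between its copies, the kind of element that PPAR and RXR pairs bind and that can hold the hexamer, was in 0 of 28 (0.38% of all windows), and TCAAGGTCA, an extended form of the hexamer bound by ERR receptors, in 0 of 28 (0.42%). The windows with the hexamer were those of Acadm, Acadvl, Cat, Cpt1a, Echs1 and Scp2. A match is only a run of letters, and elements outside these windows were not searched. Shown are the 250 bases upstream of 3 genes that were called higher on both days, with the hexamer in capitals (TGACCT is its reverse complement), at chr3:153944644-153944893, chr11:70015429-70015678 and chr2:103485154-103485403, each read on the minus strand. The hexamer's leftmost base lies at position -249 in Acadm, -87 in Acadvl and -204 in Cat, counted from the start site as 0.
Acadm: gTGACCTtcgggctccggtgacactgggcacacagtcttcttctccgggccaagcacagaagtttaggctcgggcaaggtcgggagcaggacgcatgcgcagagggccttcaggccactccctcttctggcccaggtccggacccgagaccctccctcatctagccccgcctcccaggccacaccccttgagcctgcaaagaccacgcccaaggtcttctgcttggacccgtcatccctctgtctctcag
Acadvl: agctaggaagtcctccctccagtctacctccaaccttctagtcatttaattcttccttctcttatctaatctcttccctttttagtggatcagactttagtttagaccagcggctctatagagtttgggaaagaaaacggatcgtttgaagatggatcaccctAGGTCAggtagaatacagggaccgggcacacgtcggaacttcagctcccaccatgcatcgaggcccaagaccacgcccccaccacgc
Cat: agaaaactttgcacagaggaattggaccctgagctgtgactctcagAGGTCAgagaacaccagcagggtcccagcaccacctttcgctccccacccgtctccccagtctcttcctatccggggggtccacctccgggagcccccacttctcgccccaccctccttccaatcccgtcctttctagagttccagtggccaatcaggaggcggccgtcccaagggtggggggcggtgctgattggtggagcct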

How the data were processed

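RNA of 12 BMEL cultures was hybridised to Affymetrix mouse arrays. The values, as deposited by the authors, are on the log2 scale for each probe set, and the submitters' processing notes name RMA and R 2.3.1. RMA brings the arrays to 1 distribution, so differences in total RNA are not seen. The file held 45101 probe sets and 0 value columns were left unmapped. The array medians lay between 6.09 and 6.24, and the number of arrays limits the precision. Probe sets with 1 gene in the platform annotation (34945) gave 18193 genes, the brightest probe set standing for each; 932 with several genes, 9160 with no gene listed and 64 controls were left out.

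Group means (6 groups) were estimated in a single fit with limma 3.58.1 in R 4.3.3 (empirical Bayes, variance trend) of the genes at 5 or more on at least 2 arrays. P-values were adjusted by Benjamini-Hochberg over the 15781 genes tested, with 0.05 as the threshold, and the fit was tested on simulated data. The day 1 and day 5 comparisons use the same basal arrays. "Called", "rose" and "fell" mean past this threshold. The members and lists were chosen with earlier results of these data known. The naming rule covers all members, the genes Ppara, Ppard, Pparg, Rxra, Ppargc1a, Bdh1, Acat1 and Oxct1, and up to 3 called genes with the largest day 5 change in each further list; other genes named were chosen after their values were seen. Alternatives were a floor of 6, no filter, averaged probe sets, the next brightest probe set, quantile normalisation, array weights, no variance trend, a replicate block and leaving out arrays.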

Additional observations from a re-analysis of the deposited data

Results flagged for a closer look

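Each of the 35 genes was examined in each culture for an array that stood apart from the other 3, by the gap to its nearest neighbour as a share of the range of the 4 arrays (Dixon's ratio). Of 105 groups, 12 exceeded the critical value, where chance gives about 1 in 20. The array labelled basal 9A1 replicate 1 was high for Slc25a20 (ratio 0.845), Acad11 (0.850), Hadhb (0.843), Ehhadh (0.882) and Scp2 (0.918). Basal 9A1 replicate 2 was high for Pdk4 (0.924). Day 1 9A1 replicate 1 was low for Acad11 (0.929) and Hadh (0.848) and high for Angptl4 (0.880) and Pdk4 (0.968). Day 5 9A1 replicate 2 was low for Cpt1a (0.973) and high for Pex11a (0.854). For Pdk4 in basal culture and on day 1 the array standing apart is the 9A1 array whose line genes fit its label. All 12 ratios come from arrays labelled 9A1.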

How the results depend on the processing

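The number of members called higher on day 5 was within 1.5 times the reported 28 under each alternative run, and 27 to 30 with each array left out in turn. Leaving out arrays 1 at a time gave 5 to 23 higher and 0 to 3 lower on day 1, 0 to 1 lower on day 5, and 10 to 20 higher and 0 to 2 lower from day 1 to day 5. Within 14B3 it gave 0 to 23 higher on day 1, and 16 to 28 higher and 0 to 1 lower on day 5. Within 9A1 it gave 0 to 17 higher and 0 to 4 lower on day 1, and 6 to 26 higher on day 5. For the interaction it gave 0 to 14 lower on day 1, and 0 to 1 higher and 0 to 9 lower on day 5.

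Without both doubtful arrays, an alternative that for the within-line, interaction and between-line results was chosen after seeing the data, the counts that moved were 29 higher on day 1, 1 lower on day 5, 21 higher and 2 lower from day 1 to day 5, 28 higher and 1 lower on day 1 in 14B3, 22 and 30 higher on day 1 and day 5 in 9A1, 1 higher for the day 5 interaction, and 1 higher and 1 lower between the lines on day 5. Without both doubtful arrays the calls between the lines were Pdk4 and Acaa1b, by which the arrays were judged, so they have no test. The mean of all probe sets gave 0 lower from day 1 to day 5. Array weights gave 27 higher on day 1 in 14B3 and 1 each way between the lines on day 5, and a floor of 6 or quantile normalisation each gave 1 higher on day 1 in 9A1. With the replicate number as a block, 7 were higher on day 1 and 0 lower on day 5 in 14B3, and of the day 1 calls over both lines Slc25a20, Acads, Hadh, Acaa2 and Acaa1a were lost; the numbers were not taken as pairs, since deviations of same-numbered arrays had correlations from -0.30 to 0.38. It changed 0 calls of members on day 5 over both lines.

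Signs turned as follows. On day 1, Ehhadh ranged from -1.33 to 0.10 with 1 array left out and was 0.15 without both doubtful arrays; Acaa1b ranged from -0.81 to 2.28 and Pdk4 from -0.62 to 0.53. Vnn1 on day 1 ranged from -0.25 to 0.54, and was -0.30 without both doubtful arrays and -0.044 on its next brightest probe set, and Acaa1b on day 5 ranged from -1.14 to 1.94. Of 17 members with another probe set above the floor, 13 kept their day 5 call and direction on it, 3 lost the call and 1 gained one; on day 1, 10 kept theirs, 6 lost the call and 1 turned its sign. The causes were not tested. With 2 arrays per group, levels under 5 give no order between arrays.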
